A study of Gallus gallus with 6 samples.

Results

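The genes described here are DNA repair genes of the chicken, taken by symbol from the tables of a study of leg muscle development. They are all genes whose symbol starts with FANC, RAD5, MSH, MLH, PMS, XRCC, RPA and a digit, PARP, ERCC or BRCA, together with EXO1, BARD1, ATAD5, BLM, ATM, ATR, CHEK2, NBN, MRE11A and UNG. CHEK1 is named by the same rule and was not analysed here. The rule took 65 of the 13356 genes with a symbol, and the rule uses no measured value. Leg muscle of female Xinghua chickens, a slow-growing Chinese breed, was taken from embryos of 11 days (E11) and 16 days (E16) and from chicks 1 day after hatching (D1). The birds received no treatment and carried no transgene. Each stage had 2 libraries of RNA freed of ribosomal RNA, 6 in all, and whether each library came from 1 bird or several is not given in the sources used here.

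DNA repair works through several routes, each for its own kind of lesion. Mismatch repair removes copying errors behind the replication fork, with MutS proteins that find the mismatch and MutL proteins that start its removal. Homologous recombination and the Fanconi anaemia proteins mend breaks and crosslinks with the help of an undamaged sister strand, which a cell has only after it has copied its DNA. End joining and nucleotide excision repair need no sister strand and also work in cells that have stopped dividing, as the nuclei of muscle fibers have. Kinases such as ATR and ATM sense unreplicated or broken DNA and halt the cell cycle.

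The level of each gene was the authors' FPKM (mapped fragments, scaled to the length of the transcript and to the size of the library), 1 value per stage over both libraries. No spread between libraries can therefore be given for any value, and no test was made. The number of fragments behind a single FPKM is not given. A gene was counted as lower or higher where its FPKM differed at least 2-fold, with 0.1 added to both values, and was at least 1 at 1 of the stages compared. These words describe the pooled libraries and not a tested change. Of the 3 tables, 1 per pair of stages, each stage stands in 2, and its values there differed by a nearly constant factor. The median factor was 1.20 for E11, 1.42 for E16 and 1.17 for D1, and for E11 the middle 98% of transcripts lay between 1.20 and 1.21. The 3 comparisons are therefore made from the same values of 3 stages and are not independent. Folds were taken within a table. Where levels of 3 stages are printed, E11 and E16 are those of the table of E11 vs. E16 and D1 is that of E11 vs. D1 times 1.20. The limit of 1 was set on the values of each table and not on these printed levels. A gene printed above 1 can thus lie under the limit in a comparison.

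Repair genes as a group stood lower at each later stage. The median FPKM of the 65 genes was 8.45 at E11, 6.92 at E16 and 4.91 at D1, and their summed FPKM went from 760.5 to 577.4 and 467.9. On the scale of the printed levels, 1 gene lay under an FPKM of 1 at E11, 4 at E16 and 12 at D1. From E11 to D1, 28 of the 63 genes that reached an FPKM of 1 were at least 2-fold lower (44.4%), beside 19.6% of all 10473 such genes. At least 2-fold higher were 3 genes (NBN, PARP3 and RAD51D), or 4.76%, beside 20.4% of all genes. The median log2 ratio was -0.75, beside 0.03 for all genes, and 71.4% of the repair genes had a ratio below 0, beside 48.6%. At 1.5-fold 33 (52.4%) were lower and 7 higher, beside 28.7% and 30.8% of all genes. Of the 63, 11 reached an FPKM of 1 at E11 only and could only stand lower at D1, and all of these but FANCE are among the 28. Among the genes at 1 or more at both stages 18 of 52 were lower (34.6%), beside 13.4% of all genes.

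**Figure D1:**
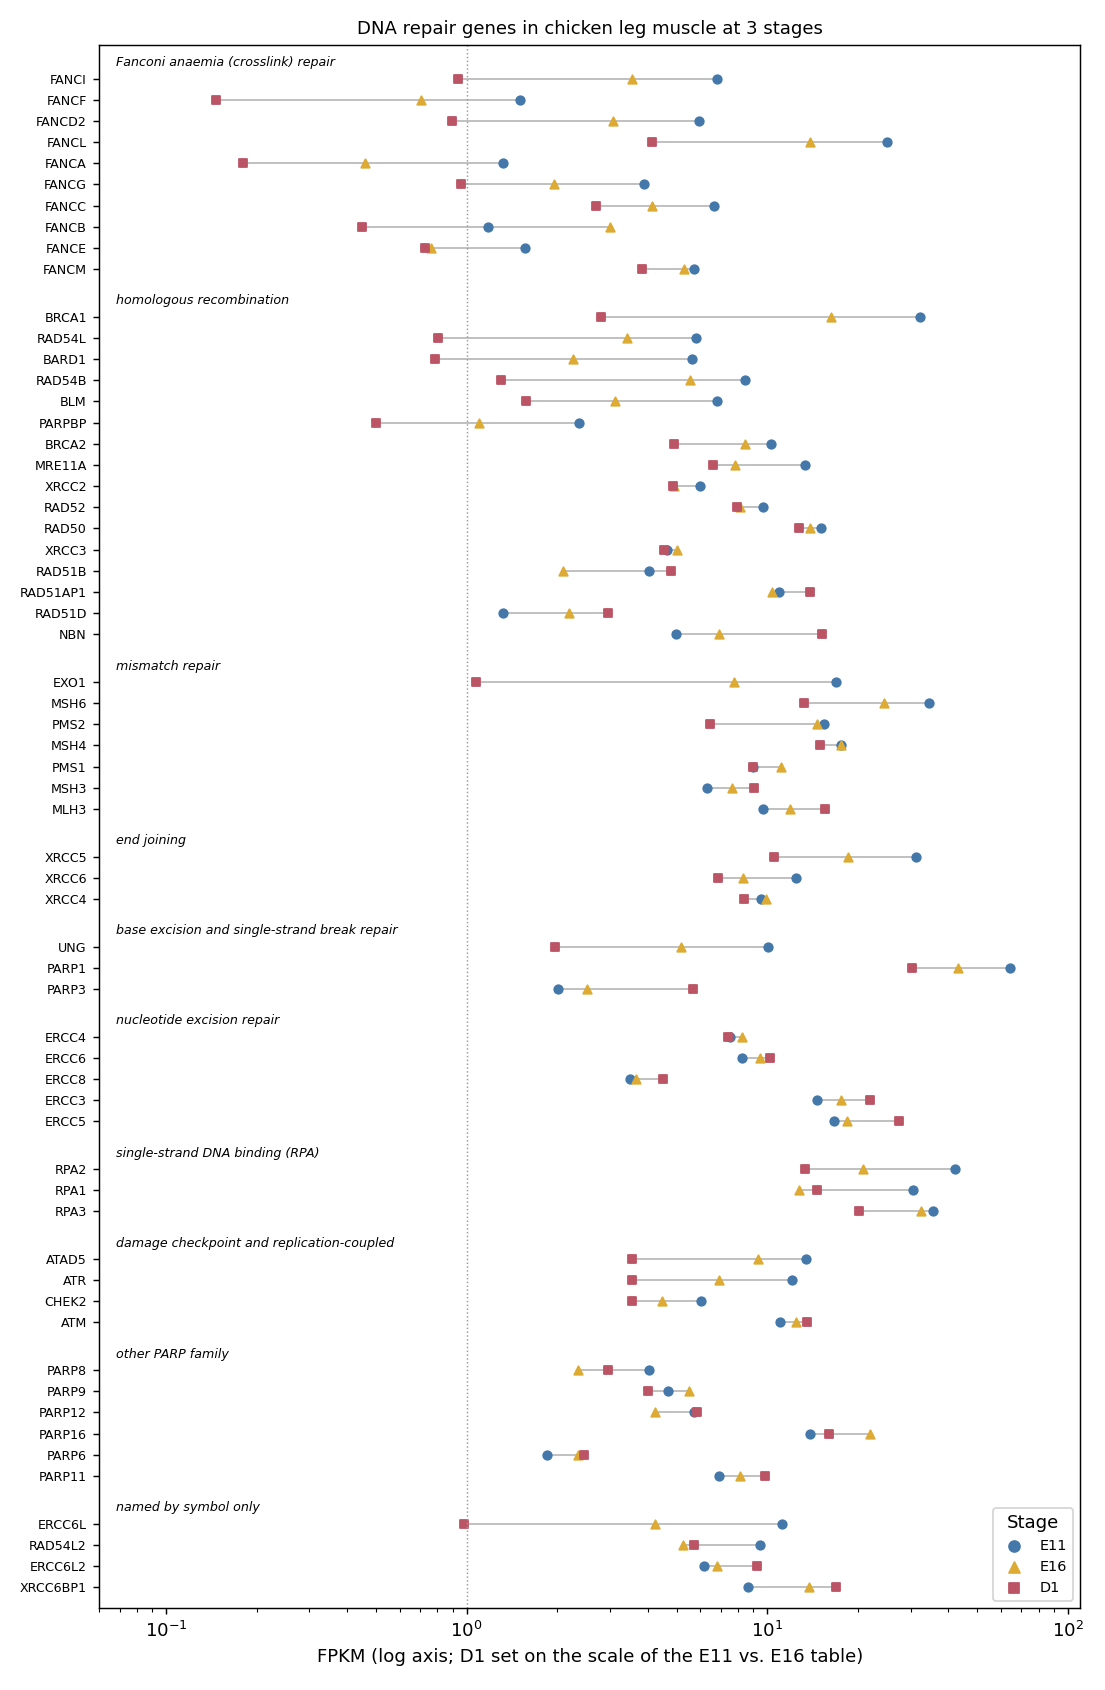
FPKM on a log axis of 61 repair genes at E11 (circles), E16 (triangles) and D1 (squares), 1 pooled value per stage, grouped by pathway and ordered by the ratio of D1 to E11. D1 is set on the scale of the table of E11 vs. E16 and the dotted line marks an FPKM of 1 on that scale. The limit used in each comparison was set on its own table. Most Fanconi genes run from right to left with age, while the genes of nucleotide excision repair keep close to their E11 level. Of the 65 genes 4 are not drawn, FANCD2OS among them, which is listed at 0 from E16 on, and 3 that are not reported by name.

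From E11 to E16, 9 of 64 genes were at least 2-fold lower (14.1%), beside 11.4% of all genes, and 1 (FANCB) was at least 2-fold higher (1.56%), beside 12.7%. At a threshold of 1.5-fold 27 genes (42.2%) were lower at this step, beside 21.2% of all genes, since many lay just inside the 2-fold limit. Among genes at 1 or more at both stages 8 of 61 were at least 2-fold lower (13.1%), beside 6.93%. BRCA1 was 1.99-fold lower and FANCG 1.94-fold lower at that step, and RPA2 just past the limit was 2.03-fold lower. From E16 to D1, 14 of 60 genes were lower (23.3%), beside 9.6% of all genes, and 3 were higher (NBN, PARP3 and RAD51B), or 5%, beside 10.4%. At 1.5-fold 24 (40%) were lower, beside 17.8%. Of these 60, 9 reached an FPKM of 1 at E16 only. Among genes at 1 or more at both stages 6 of 51 were lower (11.8%), beside 6.59%.

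By step, 4 genes were at least 2-fold lower at both (BARD1 by the transcript used, ERCC6L and EXO1 among them). A further 3 were lower at the first step and within 2-fold at the second (BLM, RPA1 and RPA2). There were 9 genes within 2-fold at the first step and lower at the second (ATAD5, BRCA1, FANCD2, FANCI, FANCL, PMS2, RAD54B, RAD54L and UNG). FANCB alone of the 65 was higher and then lower. Within 2-fold at both steps were 40 genes, and some of these still differed over the whole span, such as ATR and XRCC5. The remaining genes either were under an FPKM of 1 at a step or were higher at the second. For the 28 genes lower over the whole span, the larger part of the difference lay between E16 and D1 in 18, and the ratio was below 0 at both steps in 27. Their median log2 ratio was -0.92 for the first step and -1.05 for the second. Since these 28 were picked by the ratio over the span, low ratios at the steps follow in part from that choice. At the first step alone 54 of 64 repair genes were within 2-fold, beside 8051 of all 10614 genes. At the second alone 43 of 60 were, beside 7882 of all 9857. For patterns over both steps the share of all genes was not counted.

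**Figure D2:**
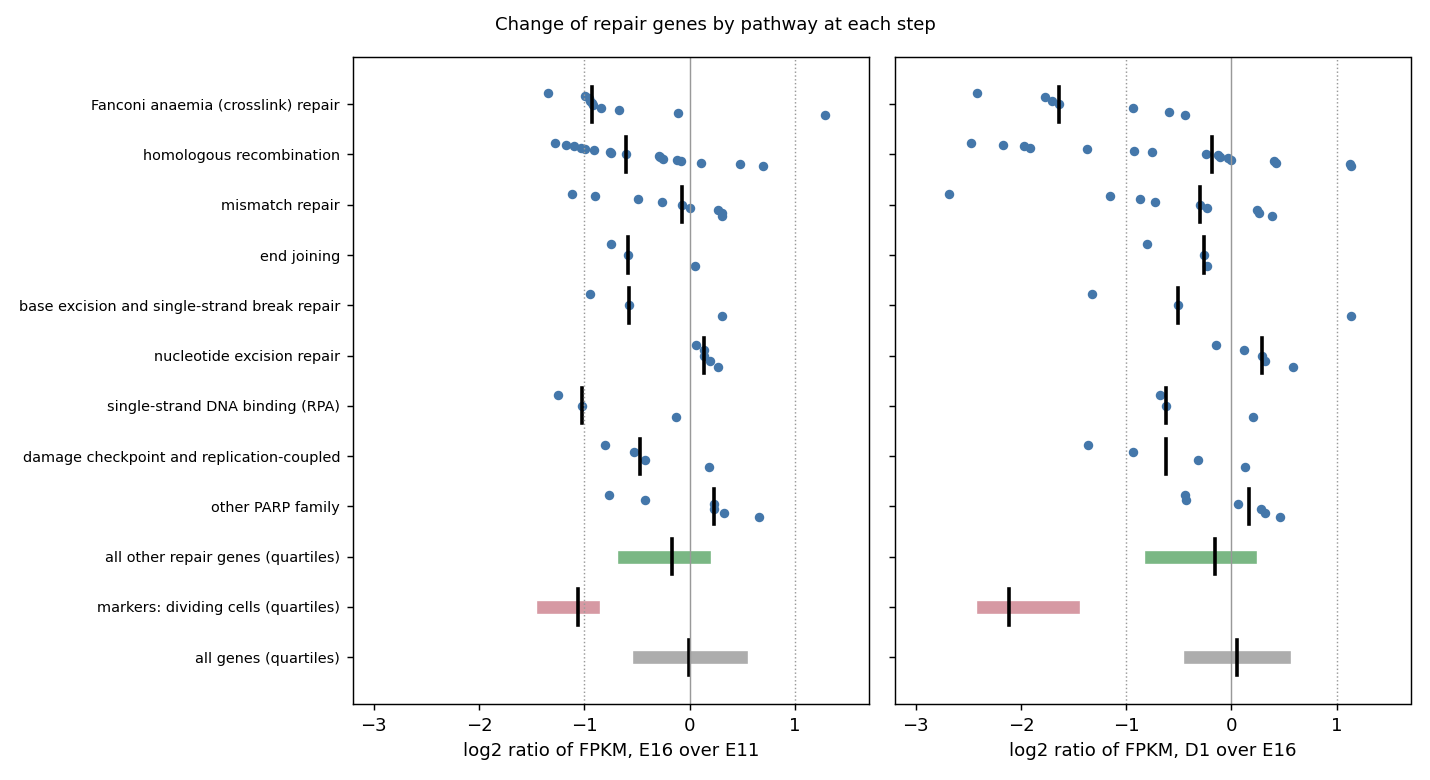
Log2 ratio of FPKM from E11 to E16 (left) and from E16 to D1 (right), 1 point per repair gene with an FPKM of at least 1 at 1 of the stages. Black bars are medians, wide bars span the middle 50% of the other repair genes, the markers of dividing cells and all genes, and dotted lines mark a 2-fold difference. The 5 genes taken by symbol only are not drawn. The Fanconi median is -0.92 over 10 genes in the left panel and -1.64 over 7 in the right, where FANCA, FANCE and FANCF lie under the limit of 1, while that of nucleotide excision repair stays above 0 at both steps.

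Most Fanconi anaemia genes stood lower at D1 than at E11. The Fanconi core complex is a ubiquitin ligase that marks FANCD2 and FANCI at a crosslink. From E11 to D1, 7 of 9 measured Fanconi genes were at least 2-fold lower, beside 19.6% of all genes, with a median log2 ratio of -2.26. FANCB did not reach the limit in this comparison, where its FPKM at E11 before rescaling was 0.974. Of the 9, 6 (FANCA, FANCD2, FANCE, FANCF, FANCG and FANCI) reached an FPKM of 1 at E11 only, and 5 of the 7 are among them. From E11 to E16, 1 of 10 was at least 2-fold lower, beside 11.4%. FANCL, the catalytic subunit, was the most abundant and went from an FPKM of 25.04 at E11 to 13.9 at E16 and 4.15 at D1, 5.90-fold lower in all. Its substrates moved side by side. FANCD2 stood at 5.95, 3.08 and 0.891 and FANCI at 6.79, 3.54 and 0.934, so that their ratio stayed between 0.870 and 0.955. FANCI was 6.55-fold lower over the span, and FANCD2 6.003-fold. FANCL is listed in a stretch that also holds VRK2, and FANCD2 in one that also holds EMC3. The part of shared reads in their values was not tested.

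The other core subunits were low at every stage, between an FPKM of 1.17 and 6.68 at E11. FANCF stood at 1.51, 0.703 and 0.147 FPKM, FANCA at 1.32, 0.458 and 0.180, and FANCG at 3.90, 1.96 and 0.956. These 3 were 6.08-, 4.80- and 3.73-fold lower at D1 than at E11. FANCC was 2.42-fold lower over the span, and FANCE, which links the core complex to FANCD2, was 1.98-fold lower and so just inside the limit. FANCM, a DNA translocase that brings the complex to the lesion, kept most of its level, at 5.73, 5.30 and 3.85.

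FANCB, another core subunit, went against the rest at the first step. Its FPKM was 1.17 at E11, 3.004 at E16 and 0.449 at D1, which is 2.44-fold higher and then 5.32-fold lower. FANCB is listed in a stretch of chromosome 1 (121691154 to 121741660) that also holds MOSPD2, whose FPKM of 12.1, 12.9 and 11.6 changed little. Whether these genes overlap was not examined, and the part of shared reads in the value of FANCB was not tested.

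In homologous recombination BRCA1, its partner and the translocases of strand exchange were lower at D1, while RAD50, NBN, RAD52, XRCC2, XRCC3, RAD51B and RAD51D were not. Of 17 genes, 9 were lower and 2 higher from E11 to D1, beside 19.6% and 20.4% of all genes, and the median log2 ratio was -1.005. Among the 9, BARD1, PARPBP and RAD54L reached an FPKM of 1 at E11 only and could only stand lower at D1. Of all genes at 1 or more at both stages, 13.4% were lower. BRCA1 had the lowest ratio of the 17. BRCA1, which promotes the resection of broken ends, had an FPKM of 32.4 at E11, 16.3 at E16 and 2.79 at D1. It was 1.99-fold lower at the first step and 5.57-fold at the second, 11.1-fold over the span. BRCA1 lies on chromosome 27 (5150701 to 5171059).

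BARD1, the partner of BRCA1 in a ubiquitin ligase, was 6.35-fold lower at D1 than at E11 (FPKM 5.61, 2.25 and 0.783). The ratio of BRCA1 to BARD1 was 5.77 at E11, 7.21 at E16 and 3.57 at D1. BRCA2, a mediator of strand exchange, changed less and went from 10.3 to 8.42 and 4.91, 2.07-fold in all. BRCA1 thus stood at 3.14 times the FPKM of BRCA2 at E11 and at 0.569 times at D1. RAD54L and RAD54B, translocases that act in strand exchange, had an FPKM of 5.81 and 8.45 at E11 and of 0.802 and 1.30 at D1. BLM, the helicase mutated in Bloom syndrome, was 4.10-fold lower (FPKM 6.83, 3.13 and 1.58), and PARPBP, which restrains recombination, was 3.99-fold lower. BLM was placed by the tables in a stretch of 237521 bases that also holds the abundant genes CTDSPL2 and CASC4.

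XRCC2, XRCC3, RAD51B and RAD51D, which act together early in strand exchange, were not lower at D1 than at E11 beyond 2-fold. XRCC2 had an FPKM of 5.98, 4.89 and 4.88, and XRCC3 of 4.63, 5.00 and 4.53. RAD51D was 2.13-fold higher at D1 than at E11, from 1.32 to 2.20 and 2.94. RAD51B went down and up again, with 4.04, 2.10 and 4.77, which is 1.88-fold lower and then 2.20-fold higher. RAD52 (1.22-fold lower) and RAD51AP1 (1.27-fold higher), both of which help to pair strands in mammals, were also within 2-fold.

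MRE11A, RAD50 and NBN encode a complex that senses broken ends and calls on ATM, and their RNA did not keep the same proportions. RAD50 kept its level, with an FPKM of 15.1 at E11, 13.9 at E16 and 12.8 at D1. MRE11A, the nuclease, was 2.01-fold lower over the span (13.3, 7.84 and 6.59). NBN on chromosome 2 was 3.03-fold higher, with 4.96, 6.92 and 15.3. The ratio of NBN to RAD50 was 0.328 at E11, 0.498 at E16 and 1.19 at D1. With both NBN transcripts summed the ratio was 0.920, 0.790 and 1.68, and so was lower at E16 than at E11. That of MRE11A to RAD50 went from 0.882 to 0.515.

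The 2 transcripts of NBN in the tables did not move alike. ENSGALT00000025646, the one used above, held 35.6% of the summed NBN FPKM at E11, 63.0% at E16 and 70.8% at D1. ENSGALT00000045415 had an FPKM of 8.98, 4.06 and 6.29. Summed over both, NBN had an FPKM of 13.9, 11.0 and 21.6, and its log2 ratio of D1 to E11 was 0.62 in place of 1.60, within the 2-fold limit. From E16 to D1 both transcripts were higher, and the log2 ratio of the sum was 0.97, also within the limit. How reads of shared exons are divided between such transcripts is an estimate of the authors' software. For the other 4 genes with several transcripts (BARD1, FANCC, PARP1 and PARPBP) the sum moved the same way as the transcript used. The log2 ratio of D1 to E11 of the sum was -2.75 for BARD1, -1.47 for FANCC, -1.10 for PARP1 and -2.62 for PARPBP. From E11 to E16 the log2 ratio of the sum was -0.92 for BARD1 and -0.96 for PARPBP, in place of -1.28 and -1.04. Both sums were thus within the 2-fold limit at that step.

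**Figure D3:**
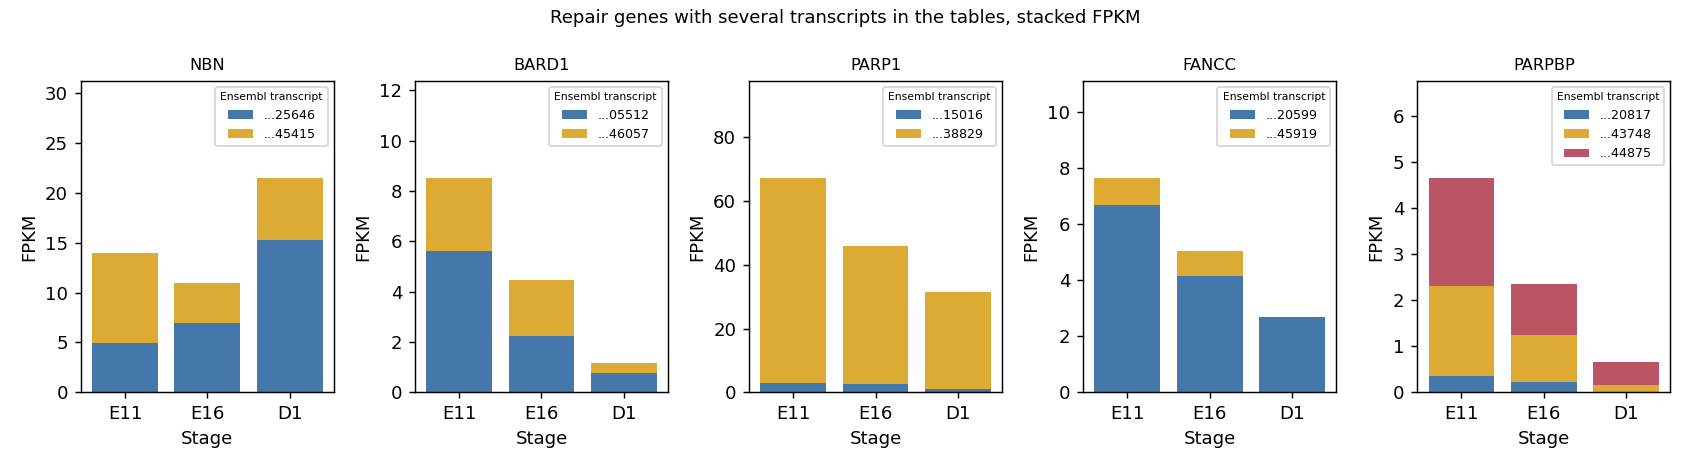
Stacked FPKM of the transcripts of the 5 repair genes that have more than 1 in the tables, at E11, E16 and D1 (D1 on the scale of the table of E11 vs. E16), with the last digits of each Ensembl transcript. In NBN the lower block grows from 4.96 to 15.3 while the upper one goes from 8.98 to 6.29, and in the other 4 genes the whole column shrinks.

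Mismatch repair divided into genes that stood lower at D1 and genes that kept their level. Of 9 genes 4 were lower and none was higher from E11 to D1, beside 19.6% and 20.4% of all genes, and the median log2 ratio was -0.23. EXO1, the exonuclease that removes the mismatched strand, had the lowest ratio of D1 to E11 of the 63 measured genes. It lies on chromosome 3 (35065030 to 35080589) and had an FPKM of 16.9 at E11, 7.73 at E16 and 1.08 at D1, 2.17-fold and 6.44-fold lower at the steps and 14.2-fold over the span. In the comparison with E11 its FPKM at D1 before rescaling was 0.894. EXO1, among the 4 lower genes, could thus only stand lower. Of the 10473 genes measured, 215 had a lower ratio of D1 to E11.

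MSH6 serves to find single mismatched bases, and MSH3 to find longer loops. MSH6 went from an FPKM of 34.5 to 24.5 and 13.3, 2.58-fold lower. MSH3 did not share this and stood at 6.32, 7.62 and 9.02, 1.42-fold higher at D1. The FPKM of MSH6 was 5.47 times that of MSH3 at E11, 3.22 times at E16 and 1.48 times at D1. MSH6 lies on chromosome 3 (8645774 to 8668184) and MSH3 on chromosome Z. MSH3 is listed in a stretch that also holds another entry of the tables, and the part of shared reads in its value was not tested.

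Among the MutL proteins, which cut the strand to be removed, PMS2 was 2.35-fold lower over the span, nearly all of it after E16 (FPKM 15.4, 14.7 and 6.48). MLH3, known for its work in meiosis, was 1.61-fold higher (9.65, 11.95 and 15.6), and PMS1 was level at 8.98, 11.1 and 8.96. MSH4, also a gene of meiosis, had an FPKM of 17.6, 17.7 and 14.99, above that of PMS1 at each stage. Its locus on chromosome 8 (28705920 to 28728058) is shared with no other gene of the tables, and where its reads lie was not examined.

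The genes for the subunits of Ku and of the RPA trimer all had a ratio of D1 to E11 below 0, with different folds. Of all genes, 48.6% had such a ratio. XRCC5 and XRCC6 encode the large and small subunits of Ku, which holds broken ends for joining. XRCC5 was 2.94-fold lower at D1 than at E11 (FPKM 31.4, 18.6 and 10.6), and XRCC6 was 1.80-fold lower (12.5, 8.30 and 6.86). XRCC4, the scaffold of the joining ligase, stood at 9.56, 9.90 and 8.40. RPA coats bare single strands in replication and repair. RPA1, its large subunit, was 2.38-fold lower at E16 than at E11 and then level (30.5, 12.7 and 14.6). RPA2 was 3.13-fold lower over the span (42.2, 20.8 and 13.4). RPA3, the smallest subunit, was 1.76-fold lower and changed mostly after E16 (35.5, 32.5 and 20.2).

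**Figure D4:**
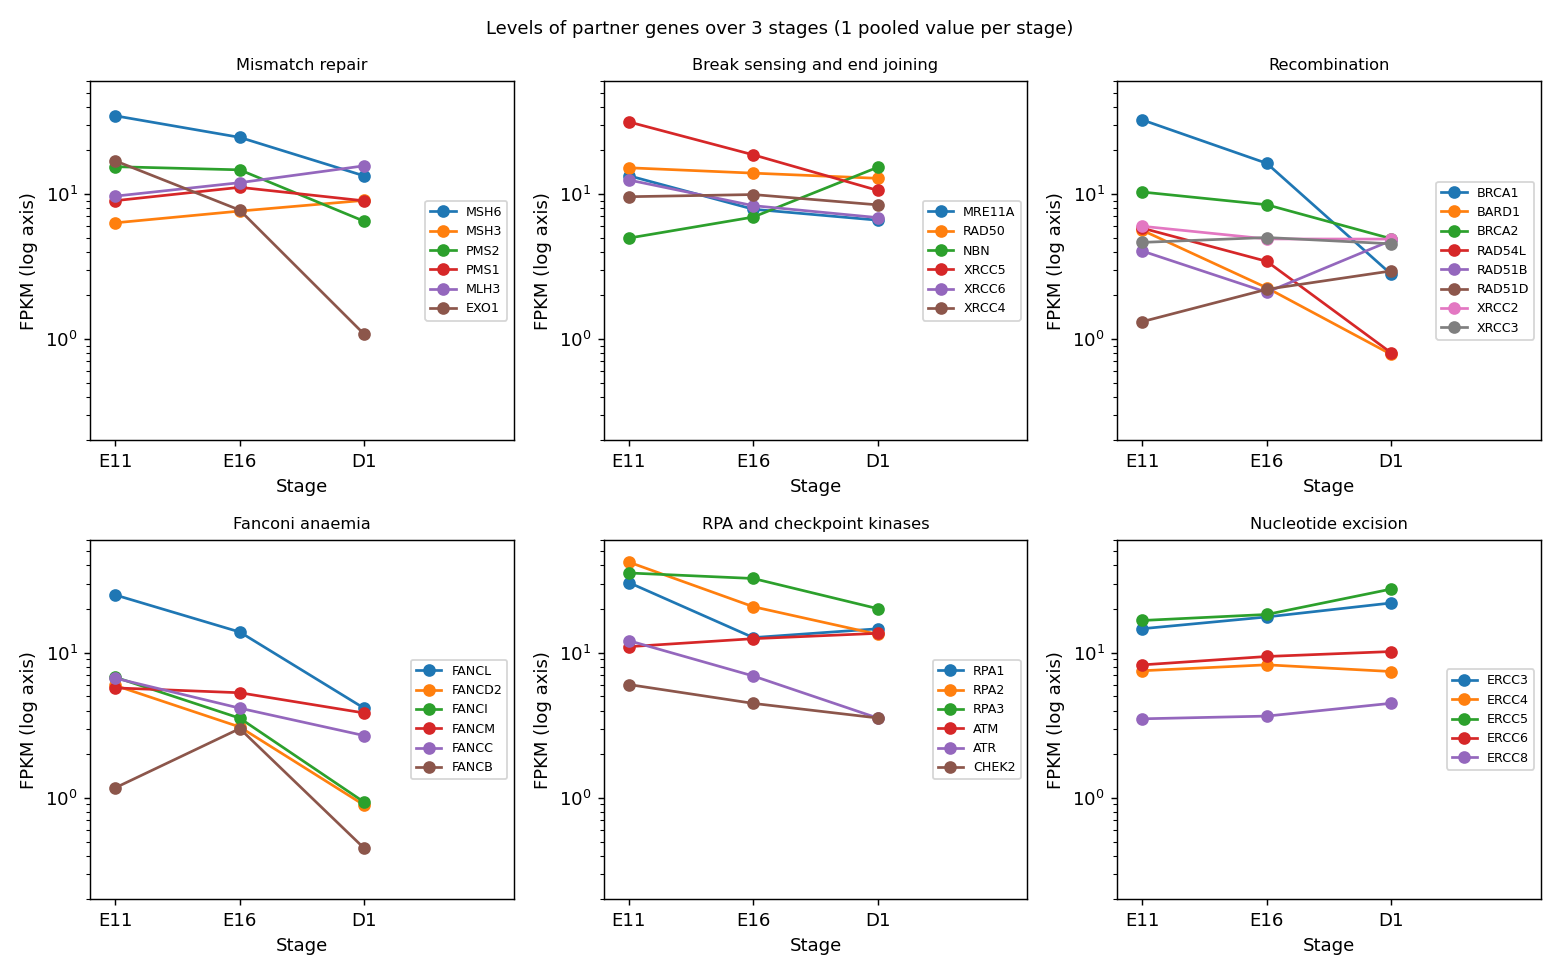
FPKM on a log axis at E11, E16 and D1 for genes that work together, 1 pooled value per stage and D1 on the scale of the table of E11 vs. E16. Stages are drawn at equal distances and not to time. MSH6 runs down while MSH3 runs slightly up, the line of ATR leaves that of ATM, and EXO1 and BRCA1 have the steepest slopes of their panels.

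Of the kinases, ATR was lower at D1 and ATM was not. ATR, which answers stalled replication forks, had an FPKM of 12.1, 6.92 and 3.55 and was 3.33-fold lower over the span. ATM, which answers broken DNA, had 11.0, 12.5 and 13.6. The ratio of ATR to ATM was 1.10 at E11, 0.553 at E16 and 0.261 at D1. CHEK2, a kinase downstream of ATM, was 1.68-fold lower. ATAD5, which takes the PCNA clamp off the DNA after replication, was 3.72-fold lower, from 13.5 to 9.35 and 3.55.

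The 3 genes grouped under base excision and single-strand break repair differed in direction. From E11 to D1, 2 were lower and 1 (PARP3) was higher, beside 19.6% and 20.4% of all genes. PARP1, which binds nicked DNA and builds poly(ADP-ribose), was the most abundant of the 65 genes at each stage, with an FPKM of 64.5, 43.3 and 30.3, 2.13-fold lower in all. UNG, which cuts uracil out of DNA, was 4.88-fold lower (10.1, 5.17 and 1.97). PARP3, another sensor of breaks, was 2.71-fold higher, from 2.02 to 2.52 and 5.68.

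Nucleotide excision repair, which cuts out bulky lesions and serves transcribed genes, had no gene past 2-fold among its 5 in either direction in any comparison. From E11 to D1, 6280 of all 10473 genes were also within 2-fold. The median log2 ratio of D1 to E11 of the 5 was 0.34. ERCC5, an endonuclease, had an FPKM of 16.7, 18.4 and 27.5, 1.64-fold higher. ERCC3, a helicase of the transcription factor TFIIH, had 14.7, 17.7 and 22.1. ERCC4, the other endonuclease, ended within 1.01-fold of its E11 level. ERCC6 and ERCC8, both of transcription-coupled repair, were 1.23- and 1.27-fold higher.

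The 6 other PARP genes (PARP6, PARP8, PARP9, PARP11, PARP12 and PARP16) were all within 2-fold in each comparison. Most of them act outside DNA repair. Their log2 ratios of D1 to E11 ran from -0.44 to 0.50. Of all genes, 8051 of 10614 were within 2-fold in E11 vs. E16 and 7882 of 9857 in E16 vs. D1. In E11 vs. D1, 6280 of 10473 were. Taken by symbol only were 5 genes. ERCC6L, a translocase of mitotic chromosomes, was 10.3-fold lower at D1 than at E11 (FPKM 11.2, 4.23 and 0.979). RAD54L2 was 1.65-fold lower, ERCC6L2 1.49-fold higher and XRCC6BP1 1.96-fold higher. FANCD2OS had an FPKM of 0.0968 at E11 and was listed at 0 from E16 on.

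Of 118 repair genes that the rule leaves out, 97 were in the tables. From E11 to D1, 33 of 93 measured were at least 2-fold lower (35.5%) and 5 higher, beside the 19.6% and 20.4% of all genes. The median log2 ratio was -0.29. Of the 33, OGG1, MUTYH, NEIL3, POLQ, DCLRE1B, POLN, LIG1 and POLE reached an FPKM of 1 at E11 only. These genes could only stand lower at D1. Among all genes at 1 or more at both stages 13.4% were lower. Among replication enzymes shared with repair 8 of 13 were lower, such as the ligase LIG1 (6.44-fold) and the clamp PCNA (3.36-fold, FPKM 117 at E11 and 34.8 at D1). In recombination and crosslink repair 12 of 25 were lower, with UHRF1, which maintains DNA methylation (7.62-fold), the nuclease subunit EME1 (5.99-fold) and UBE2T (4.34-fold), which works with FANCL. SHFM1, a small partner of BRCA2, was 2.50-fold higher.

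The shares of all genes, 19.6% lower and 20.4% higher, stand beside each of the following counts from E11 to D1. In nucleotide excision repair none of 15 further genes was lower and 1 was higher. Of 12 checkpoint genes 4 were lower (ATRIP, CLSPN, H2AFX and WEE1) and 3 higher (RNF168, MDM2 and CDKN1A). ATRIP, the partner of ATR, was 2.18-fold lower and CLSPN, which passes its signal on, 6.07-fold. CDKN1A, a brake on the cell cycle, was low throughout and 2.24-fold higher, with an FPKM of 0.486 at E11 and 1.24 at D1. It reached the limit of 1 at D1 only and so could only stand higher. In base excision repair 4 of 13 were lower (OGG1, MUTYH, NEIL3 and TDP1), in end joining 3 of 6 (POLQ, TP53BP1 and RIF1) and in translesion synthesis and direct reversal 2 of 9 (POLN and RAD18). The last share, 22.2%, and the 25% of checkpoint genes higher lay near those of all genes. OGG1, MUTYH, NEIL3, POLQ and POLN reached an FPKM of 1 at E11 only and could only stand lower at D1. Of all genes at 1 or more at both stages, 13.4% were lower.

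Markers of dividing cells also stood lower at D1, and more of them did so than of the repair genes. Of 22 measured markers all were at least 2-fold lower at D1 than at E11, beside 28 of 63 repair genes and 19.6% of all genes. CCNE2 and GINS2 lay under an FPKM of 1 at D1 and could only stand lower there. The median log2 ratio of the markers was -3.10, against -0.75 for the repair genes and -2.26 for the Fanconi genes. The summed FPKM of the markers was 940.3 at E11, 441.7 at E16 and 107.8 at D1, and none was at 0 at any stage. At the first step 11 of the 22 were lower, beside 11.4% of all genes, and at the second 20, beside 9.6%. In whole muscle, fewer dividing cells and less RNA of a gene per cell cannot be told apart. The part of cell division in the values of the repair genes was not tested.

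Markers of other tissues also changed. The summed FPKM of 6 muscle fiber genes was 1330 at E11, 39839 at E16 and 58869 at D1. Summed FPKM went from 253.5 to 61.95 for cartilage, from 108.3 to 3.25 for epidermis and from 140.2 to 3.84 for kidney between E11 and D1, mostly by E16. All 6 measured genes of each of these lists were at least 2-fold lower over the span, beside 19.6% of all genes. Only COL2A1, COL11A1, KRT14, TP63 and CUBN among them reached an FPKM of 1 at both stages. The rest reached it at E11 only and could only stand lower at D1. MATN3, KRT75 and AQP2 reached it at neither stage and are not among those measured. Of 7 kidney markers 1 was at 0 at E11 and 2 at E16 and D1. Summed FPKM also went from 19.7 to 1172 for fat cells, from 131.0 to 416.7 for endothelium and from 40.5 to 19.6 for leukocytes. For red cells it was 1546 at E11, 3054 at E16 and 1316 at D1. HBE, HBG1 and TFRC of that list did not follow the sum. HBE and HBG1 were lower at E16 than at E11, and TFRC was highest at D1. Of the muscle progenitor genes MYOD1 stood at 54.2 at E11 and 139.0 at D1. MYF5 stood at 1.02 at E11, 3.27 at E16 and 1.98 at D1. MYOG was 7.83-fold lower at D1 than at E11 and PAX3, under an FPKM of 1 throughout, 4.57-fold lower. The part of these cells in the values of the repair genes was not tested.

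The genes lie on 21 chromosomes of galGal4. Chromosome 1 held 12, and chromosome Z, of which a female has a single copy, held 7 (ERCC6L2, ERCC8, FANCC, FANCG, MSH3, PARP8 and XRCC4). For 14 genes the listed locus is a stretch that also holds another Ensembl entry of the tables. Such a stretch can span several whole genes, so a shared locus does not show that the genes overlap. The library kit does not keep strand, so reads of any genes that do overlap could not be told apart by it.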

How the data were processed

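RNA of 6 leg muscle libraries, 2 per stage, was sequenced by the authors on the Illumina platform. Per the labels and the methods, reads were trimmed with Trim Galore, aligned with TopHat and Bowtie to galGal4 and assembled with Cufflinks. The FPKM values were made by the authors and deposited in 3 tables, 1 per pair of stages, with both libraries merged in 1 value. The tables also hold the authors' fold changes, test statistics, p and q, which were not used here. Depth per library is not in the tables.

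The transcript with the highest mean FPKM over the 3 tables stood for its gene. Rows marked by the authors as holding too many fragments (HIDATA) in any table, 11 among Ensembl rows with a symbol and none of a repair gene, were left out. Ratios were log2 of FPKM plus 0.1, on that scale understating changes of low genes, and a gene was called at 2-fold with an FPKM of at least 1 at 1 stage. With no value per library, no test was possible. The calling step was tested on simulated data. Genes described are those called and the 2 most abundant per pathway; others named were chosen after their values were seen, as were the pairs set in ratio. Members and lists were chosen with earlier results of these data known. No sequence is shown, since no sequence of galGal4 was used here. Alternatives were other pseudocounts, filters, folds, summed transcripts and centring. Python 3.11.15, numpy 2.4.6, pandas 2.3.3 and matplotlib 3.10.9 were used. A few genes are counted but not reported by name here.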

Additional observations from a re-analysis of the deposited data

How the results depend on the processing

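No paired analysis was possible because the tables hold 1 value per stage over both libraries, and for the same reason no library could be left out. The direction of the median log2 ratio was kept under every alternative run in each comparison. With a pseudocount of 1 the counts from E11 to E16 were 5 lower and 0 higher, 1 was higher from E16 to D1, and the median from E11 to D1 was -0.61. With an FPKM of at least 5 at 1 stage, none was higher from E11 to E16, 6 were lower and 1 higher from E16 to D1, and 1 was higher from E11 to D1. At 1.5-fold, 27 were lower and 4 higher from E11 to E16, 24 lower from E16 to D1 and 7 higher from E11 to D1. At 3-fold, 0 were lower and 0 higher from E11 to E16, 0 higher from E16 to D1 and 1 higher from E11 to D1. With no filter, 9, 15 and 29 of 65 were lower in E11 vs. E16, E16 vs. D1 and E11 vs. D1. Chosen after the data were seen, leaving out the 14 genes with a shared locus gave 0 higher and a median of -0.29 from E11 to E16, 8 lower and a median of -0.15 from E16 to D1, and a median of -0.36 from E11 to D1. With genes of repair and checkpoint pathways only, also chosen after the data were seen, the median from E11 to D1 was -1.005. Summed transcripts and centring on all genes left each count within 1.5 times. Low genes such as FANCA, FANCF and PARPBP may rest on few fragments, whose number is not given.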
